A study of Mus musculus with 6 samples.

Results

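The genes described here encode the axoneme of motile cilia and 4 transcriptional regulators of ciliated cells, and they were followed across mouse lungs with and without oral cadmium. A gene was a member if its symbol began with Dnah or Dnai (dynein chains), Rsph (radial spoke), Cfap (cilia and flagella associated protein) or Tekt (tektin) followed by a number, or was Foxj1, Mcidas, Rfx2 or Rfx3. Only probe sets paired with exactly 1 gene symbol were used, and a gene was represented by its probe set of highest mean. The rule found 59 of the 22180 genes measured. Of these, 24 had a mean over the 6 arrays of 6 or more on the log2 scale and are called lung-expressed here, and 35 lay below 6 and are called dim. No value of the comparison between groups entered the rule.

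The lungs were those of male C57Bl6 mice aged 28 weeks, 3 of them controls and 3 Cd-treated, with 1 array for each biological replicate named in the labels. The Cd-treated mice had 10 mg/L CdCl2 in their drinking water over the last 20 weeks, starting at 8 weeks of age, and the control mice did not. Amplified RNA was read on arrays of the Affymetrix type Mouse Gene ST 2.0, and each value is a log2 robust multiarray average (RMA). The tissue was whole lung, so that fewer ciliated cells and less RNA in each ciliated cell cannot be told apart, and a probe set's level cannot be set against that of another gene.

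A motile cilium beats through its axoneme, a ring of outer doublet microtubules around a central pair. Outer and inner dynein arms pull neighbouring doublets past each other, radial spokes pass signals from the central pair to the arms, and tektins and other inner proteins stiffen the doublets. In the airway, multiciliated cells carry these cilia and move mucus out of the lung, with FOXJ1, MCIDAS and the RFX factors directing the genes that build them.

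RFX factors bind the X-box, a short sequence followed by its own inverted copy, and forkhead factors such as FOXJ1 bind a site of their own. The RefSeq promoters (GRCm38.p6, 300 bases, from 250 before to 50 after a start) of 51 members were therefore searched on both strands for GTNNCC followed 0 to 3 bases on by its reverse complement, for GTTGCC alone, which can lie within such a pair, and for the forkhead letters TGTTTAC. The pair was present in 10 of 51 members (19.6%), against 1185 of 27025 genes (4.38%). GTTGCC was present in 20 of 51 members (39.2%, against 14.1% of all genes), and TGTTTAC in 4 of 51 (7.84%, against 4.05%). A gene with several starts counted if any of its promoters held a match. These are matches of letters, not measured binding sites. The 7 stretches printed here hold a pair that begins before the start and belong to genes whose values in Cd-treated replicates 1 and 3 differed by a log2 value of 1 or more. Each reads 5′ to 3′ along the gene, with the pair in capitals.
Cfap43: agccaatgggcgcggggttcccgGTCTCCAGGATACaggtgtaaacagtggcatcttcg
Tekt4: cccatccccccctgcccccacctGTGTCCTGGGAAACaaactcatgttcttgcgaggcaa
Cfap298: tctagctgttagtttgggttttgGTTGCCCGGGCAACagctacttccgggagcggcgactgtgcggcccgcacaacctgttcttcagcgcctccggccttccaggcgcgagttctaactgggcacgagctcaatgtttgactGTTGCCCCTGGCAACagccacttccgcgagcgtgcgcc
Cfap126: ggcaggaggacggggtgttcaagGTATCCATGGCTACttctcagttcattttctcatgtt
Cfap206: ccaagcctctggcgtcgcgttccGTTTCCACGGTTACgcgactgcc
Rsph9: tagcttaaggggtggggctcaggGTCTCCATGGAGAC
Cfap58: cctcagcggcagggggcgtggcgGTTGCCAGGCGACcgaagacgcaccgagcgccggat
The stretches of Cfap43 (chr19:47837398-47837456, minus strand) and Tekt4 (chr17:25471407-25471466, plus strand) began their matches 72 and 160 bases before the start. Cfap298 (chr16:90934881-90935060, minus strand) held 2 pairs, the farther of them 188 bases before the start, and its capitals fall in 2 blocks. In Cfap126 (chr1:171122940-171122999, plus strand), Cfap206 (chr4:34730207-34730252, minus strand), Rsph9 (chr17:46144193-46144229, minus strand) and Cfap58 (chr19:47937630-47937688, plus strand), the matches began 82, 23, 6 and 59 bases before it, and that of Rsph9 ran across the start. Cfap126 has other starts, whose promoters held no pair. The pair was seen in 8 of the 23 members with a promoter and such a difference (34.8%), and in 2 of the other 28 (7.14%). This split was made after the values were seen and carries no test.

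Neither the lung-expressed nor the dim cilia genes differed between Cd-treated and control lungs beyond the spread of the arrays. None of the 24 lung-expressed members and none of the 35 dim members had an unadjusted p under 0.05 from limma, where 2.01% of all 41345 probe sets, 1.19% of all genes, 1.43% of lung-expressed genes and 1.11% of dim genes had one. The smallest unadjusted p was 0.446 among lung-expressed members (Cfap65) and 0.110 among dim members (Mcidas), and the smallest adjusted p of any member was 0.992. At an adjusted p under 0.05, limma called 0 of the 41345 probe sets. No lung-expressed member had groups that did not overlap, where 5.84% of lung-expressed genes did, and 2 of 35 dim members did, where 7.57% of dim genes did. The median log2 difference (Cd-treated minus control) was -0.01 over the lung-expressed members, with 9 above 0 and 15 below, and 0.07 over the dim members, with 24 above and 11 below. Over all genes it was -0.02, and over lung-expressed genes it was -0.20. In lung-expressed genes, control replicate 3 stood high and Cd-treated replicate 3 low, with median deviations of 0.42 and -0.33 from a gene's own mean. The -0.20 thus depended on the scaling of the arrays, as described below. The 95% intervals of single members were wide, with a median distance from estimate to bound of 0.81 for lung-expressed and 0.66 for dim members, and lay within 1 of 0 for 18 of the 24 lung-expressed members.

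**Figure D1:**
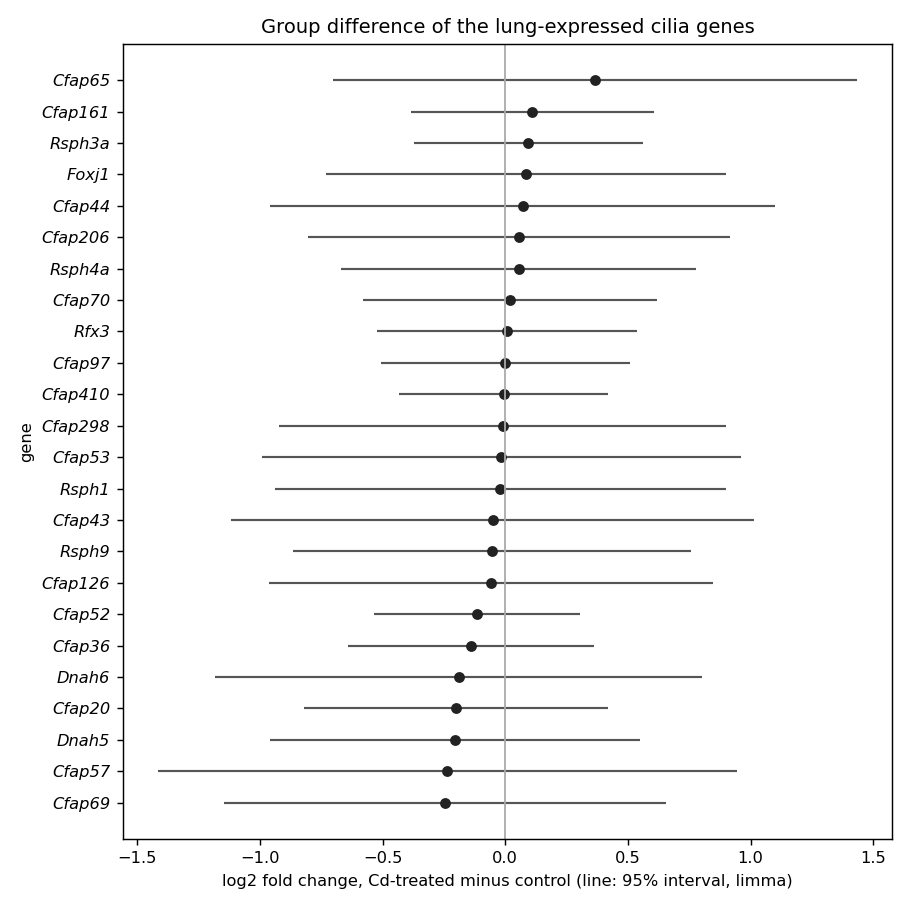
Log2 difference (Cd-treated minus control, horizontal axis) of each of the 24 lung-expressed members, ordered by that difference, with a line for the 95% interval from limma. The points run from -0.25 (Cfap69) to 0.37 (Cfap65), and all 24 intervals take in 0.

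The lung-expressed members varied widely within the Cd-treated group. Cd-treated replicate 1 had the highest value of the 6 arrays in 18 of 24 lung-expressed members (75.0%), against 15.9% of the 4942 genes of like brightness (a mean from 6 to that of the brightest member). Cd-treated replicate 3 had the lowest value in 18 of 24 (75.0%, against 57.5%), and both held for 16 members (66.7%, against 11.1%). Control replicate 3 was the highest array in 67.5% of the genes of like brightness, against 12.5% of the members. Where it was highest, Cd-treated replicate 1 could not be, so that control array held down the shares of 15.9% and 11.1%. Averaged over the lung-expressed members, the log2 level was 6.47, 6.71 and 6.52 in the 3 controls and 7.09, 6.52 and 6.01 in Cd-treated replicates 1, 2 and 3. Replicate 1 thus lay above every control, replicate 3 below every control and replicate 2 among them. The comparison of the 2 arrays was chosen after the values were seen, and is given as a description.

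**Figure D2:**
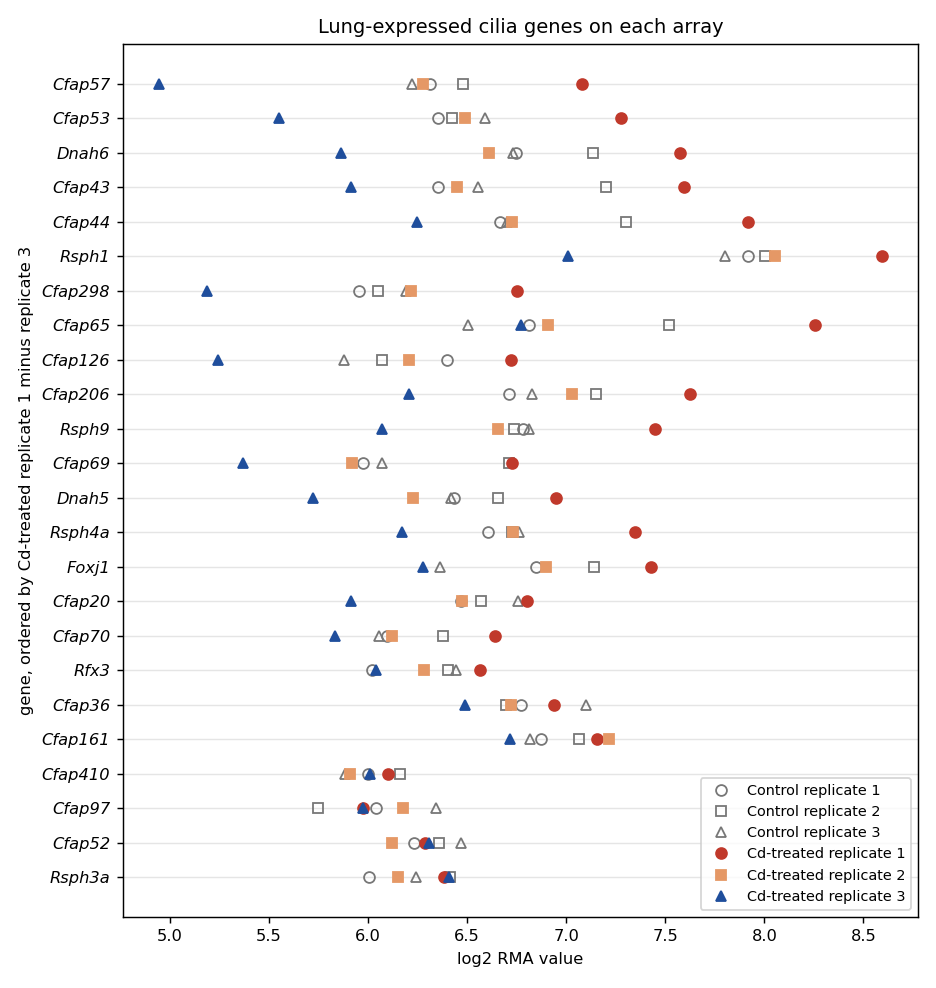
Log2 RMA value (horizontal axis) of each of the 24 lung-expressed members on the 6 arrays, 1 symbol per array, with genes ordered by Cd-treated replicate 1 minus replicate 3. Replicate 1 lies at the right and replicate 3 at the left end of the values in 16 members, and the order is lost in the lowest 4, Cfap410, Cfap97, Cfap52 and Rsph3a.

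Among the regulators, Foxj1, the forkhead factor that drives the motile cilia programme, was measured at 6.85, 7.14 and 6.36 in the controls and at 7.43, 6.90 and 6.28 in the Cd-treated lungs. The Cd-treated group held both the highest and the lowest of these values, and the log2 difference was 0.08 (standard error 0.34, n = 3 per group, unadjusted p = 0.814 from limma). Rfx3, an RFX factor of ciliated cells, lay at 6.02, 6.40 and 6.45 in controls and at 6.56, 6.28 and 6.04 in Cd-treated lungs. Its span in the Cd-treated group was 0.53, and the group difference was 0.01 (standard error 0.22). Rfx2, an RFX factor of multiciliated cells and of spermatids, was dim, at 4.72, 4.86 and 5.02 in controls and 5.56, 4.71 and 4.37 in Cd-treated lungs. It followed the same order as Foxj1 within the Cd-treated group, with 1.19 between replicates 1 and 3.

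Mcidas, the coregulator that starts multiciliated differentiation, had the same order within the Cd-treated group but lay otherwise against the controls. It was dim, at 4.85, 4.92 and 4.50 in controls and 5.22, 5.16 and 4.99 in Cd-treated lungs, and all 3 Cd-treated values lay above the 3 controls. The log2 difference was 0.36 (standard error 0.20, unadjusted p = 0.110, adjusted p = 0.992 from limma), which did not pass the test. Cd-treated replicates 1 and 3 differed by 0.23 here, so that the order seen in Foxj1 was small in Mcidas.

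Of the 11 dynein heavy chain genes, 2 were lung-expressed and 9 dim. Dnah5, a heavy chain of the outer arm whose human counterpart is mutated in primary ciliary dyskinesia, was at 6.43, 6.66 and 6.42 in controls and at 6.95, 6.22 and 5.72 in Cd-treated lungs. The controls spanned a narrow range inside the Cd-treated values, and the log2 difference was -0.21 (standard error 0.32, unadjusted p = 0.540 from limma). Dnah6, an inner arm heavy chain, was at 6.75, 7.14 and 6.73 in controls and at 7.58, 6.61 and 5.86 in Cd-treated lungs. Its Cd-treated replicates 1 and 3 were 1.71 apart, against a group difference of -0.19 (standard error 0.42).

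Dnah9, an outer arm heavy chain, lay just under the limit between the sets with a mean of 5.97, at 5.89, 6.21 and 5.91 in controls and 6.32, 5.79 and 5.68 in Cd-treated lungs. The nearest member above the limit was Cfap410, a protein of the ciliary base, with a mean of 6.01. Dnah7a, an inner arm heavy chain, had the largest difference of any member, 0.61 (standard error 0.38, unadjusted p = 0.155 from limma), and was named after its values were seen. Its controls lay at 3.60, 3.95 and 3.38 and its Cd-treated values at 5.11, 3.79 and 3.87, so that replicate 1 alone stood well above the controls. Dnah7a has near-identical copies (Dnah7b and Dnah7c), so its value is uncertain. The intermediate chains appeared on the array as Dnaic1 and Dnaic2, which the rule did not take in. Their log2 differences were 0.07 (unadjusted p = 0.808) and 0.20 (unadjusted p = 0.425 from limma).

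Of the 7 radial spoke genes, 4 were lung-expressed, among them 3 of the spoke head. Rsph1, a spoke head protein, was at 7.92, 8.00 and 7.80 in controls, a standard deviation of 0.10, and at 8.60, 8.05 and 7.01 in Cd-treated lungs, a standard deviation of 0.81. Rsph9, another spoke head protein, was at 6.78, 6.74 and 6.81 in controls (standard deviation 0.039) and at 7.45, 6.65 and 6.07 in Cd-treated lungs (standard deviation 0.69). Rsph4a, also of the spoke head, was at 6.60, 6.73 and 6.76 in controls and 7.35, 6.73 and 6.17 in Cd-treated lungs. In all 3 genes the controls lay close together, while Cd-treated replicate 1 stood above and replicate 3 below them. Their group differences were close to 0, at -0.02 for Rsph1 (standard error 0.39), -0.05 for Rsph9 (0.34) and 0.05 for Rsph4a (0.31).

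Rsph3a, of the spoke stalk and with a near-identical copy in Rsph3b that makes its value uncertain, did not follow, at 6.004, 6.42 and 6.24 in controls and 6.38, 6.15 and 6.41 in Cd-treated lungs. Its Cd-treated replicates 1 and 3 were 0.03 apart, with replicate 3 the higher, and its group difference was 0.09 (standard error 0.20). Rsph14 was dim and, beside Mcidas, the other member whose groups did not overlap. It lay at 4.69, 4.68 and 4.56 in controls and 4.82, 4.74 and 4.78 in Cd-treated lungs, with a log2 difference of 0.14 (standard error 0.17, unadjusted p = 0.445 from limma).

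The Cfap family was the most numerous, with 16 lung-expressed and 16 dim members. Cfap57, a protein of the inner arms in Chlamydomonas, had the widest Cd-treated spread of the lung-expressed members, at 7.08, 6.28 and 4.94 against 6.31, 6.48 and 6.22 in controls. Replicates 1 and 3 differed by 2.13, or 4.39-fold, and the Cd-treated standard deviation was 1.08 against 0.13 in controls. The group difference of -0.24 (standard error 0.50) was smaller than that spread. Cfap65, needed for sperm flagella in mice, was at 6.81, 7.52 and 6.51 in controls and 8.26, 6.91 and 6.77 in Cd-treated lungs. Its difference of 0.37 (standard error 0.45, unadjusted p = 0.446 from limma), the largest of the lung-expressed members, came with replicate 1 above and the other Cd-treated arrays inside the range of the controls.

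Cfap44, which in mice is needed for sperm flagella, was at 6.67, 7.30 and 6.70 in controls and 7.92, 6.72 and 6.25 in Cd-treated lungs. Replicates 1 and 3 were 1.67 apart around a group difference of 0.07 (standard error 0.44). Cfap69, of the central pair, was at 5.97, 6.71 and 6.07 in controls and 6.73, 5.92 and 5.37 in Cd-treated lungs, with a group difference of -0.25 (standard error 0.38, unadjusted p = 0.538 from limma). Its replicate 1 was barely above control replicate 2, while replicate 3 was below every control. Cfap20, of the inner junction of the doublets, spanned less, at 6.47, 6.57 and 6.76 in controls and 6.80, 6.48 and 5.92 in Cd-treated lungs. Of members named after their values were seen, Cfap53, which lies inside the doublets, was at 6.35, 6.42 and 6.59 in controls and 7.28, 6.49 and 5.55 in Cd-treated lungs, with 1.73 between replicates 1 and 3.

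Other Cfap genes differed less between Cd-treated replicates 1 and 3. Cfap52, a protein inside the doublets, was at 6.23, 6.36 and 6.47 in controls and 6.29, 6.12 and 6.31 in Cd-treated lungs, with 0.02 between Cd-treated replicates 1 and 3. Cfap36, which binds the small GTPase ARL3, was at 6.77, 6.70 and 7.10 in controls and 6.94, 6.72 and 6.49 in Cd-treated lungs, a span of 0.45. Cfap161, of the doublet lumen, was at 6.87, 7.06 and 6.82 in controls and 7.15, 7.21 and 6.72 in Cd-treated lungs. In these 3 genes the groups overlapped, with differences of -0.11 (standard error 0.18) for Cfap52, -0.14 (0.21) for Cfap36 and 0.11 (0.21) for Cfap161. Cfap410 spanned 0.09 between Cd-treated replicates 1 and 3, at 6.10 and 6.01.

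The 5 tektin genes were all dim. Tekt4 was at 5.32, 5.84 and 5.77 in controls and 6.45, 5.68 and 4.83 in Cd-treated lungs, with 1.62 between replicates 1 and 3. Tekt1 was at 5.37, 5.99 and 5.33 in controls and 5.93, 5.70 and 5.04 in Cd-treated lungs, and its replicate 1 did not exceed control replicate 2. Tekt2 was at 5.59, 6.12 and 5.74 in controls and 6.71, 5.66 and 5.30 in Cd-treated lungs. All 3 tektins run along the doublets, and their group differences were 0.01 (standard error 0.41) for Tekt4, -0.00 (0.31) for Tekt1 and 0.07 (0.38) for Tekt2. A second probe set of Tekt2 gave 5.56, 5.76 and 5.50 in controls and 6.18, 5.47 and 6.06 in Cd-treated lungs, where replicate 3 was not low. Tekt3 and Tekt5, by contrast, were higher in replicate 3 than in replicate 1, by 0.15 and 0.23.

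Set side by side, Cd-treated replicates 1 and 3 differed by 1 or more on the log2 scale in 15 of 24 lung-expressed members (62.5%), against 9.21% of genes of like brightness, by 0.5 to 1 in 3 and by less in 6. The median difference was 1.29 (2.45-fold), against 0.39 in genes of like brightness. In 17 members (70.8%, against 12.1%) replicate 1 was above all 3 controls and replicate 3 below them all. Without control replicate 3, the array that stood apart from the others, this held for 19 of 24 members, but also for 38.2% of genes of like brightness. The median standard deviation of the lung-expressed members was 0.65 in the Cd-treated group and 0.19 in the control group, whereas genes of like brightness had 0.27 and 0.34. In the dim members, Cd-treated replicates 1 and 3 differed by 1 or more in 14 of 35 (40.0%), against 2.02% of dim genes at or above the dimmest member. Their median difference was 0.63, against -0.07 in those dim genes. Replicate 3 also had lower values than the other arrays in many genes of like brightness, whose median deviation from their own mean was -0.32 there, against -0.63 for the members. In replicate 1 these medians were 0.07 and 0.61.

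**Figure D3:**
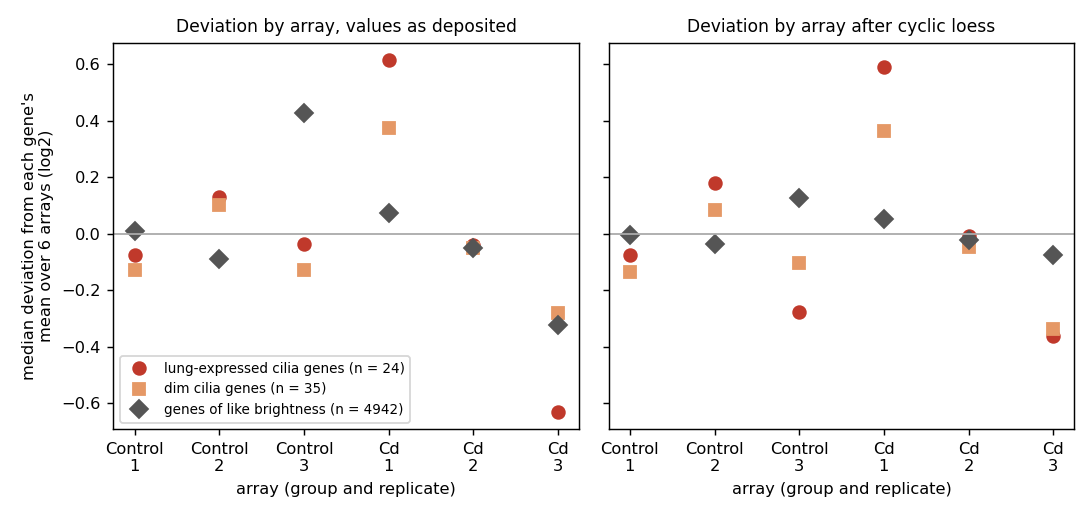
Median deviation from a gene's own mean over the 6 arrays (log2, vertical axis) for the lung-expressed members, the dim members and the 4942 genes of like brightness on each array, as deposited and after a cyclic loess normalization of all arrays. The lung-expressed members stand at 0.61 in Cd-treated replicate 1 and -0.63 in replicate 3 as deposited, and at 0.59 and -0.36 after cyclic loess.

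The order of the arrays depended in part on their scaling. After cyclic loess, which evens out differences that depend on brightness, the members' median deviation was -0.28 in control replicate 3 and -0.36 in Cd-treated replicate 3, and Cd-treated replicate 1 was above and replicate 3 below every control in 10 of 24 members, against 12.6% of genes of like brightness. Replicates 1 and 3 still differed by a median of 1.03. The median log2 difference between groups went from -0.01 to 0.13 in the lung-expressed members. In genes of like brightness it went from -0.20 to -0.03.

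Other genes of cilia, listed from general knowledge, shared the order of arrays to differing degrees. For comparison, Cd-treated replicate 1 exceeded replicate 3 by 1 or more in 3.75% of all genes and 9.63% of lung-expressed genes. Both ends of the order (replicate 1 highest, replicate 3 lowest) were seen in 5.91% and 10.8%. Control replicate 3 was the highest array in 34.3% of all genes and 67.5% of lung-expressed genes, which held these shares down. Of 32 measured genes of the central pair, nexin link and ruler (of 41 listed), 0 had an unadjusted p under 0.05 from limma, the median log2 difference was -0.03, and 24 differed by 1 or more between Cd-treated replicates 1 and 3. Replicate 1 was the highest and replicate 3 the lowest array in 25 of the 32. Their mean level was 5.85, 6.11 and 5.82 in controls and 6.46, 5.88 and 5.31 in Cd-treated lungs. Nme5, a radial spoke-associated protein of this list, was at 7.49, 7.48 and 7.45 in controls and 7.92, 7.51 and 6.003 in Cd-treated lungs, and its group difference was -0.33 (unadjusted p = 0.504). Of 18 measured genes of dynein arm assembly and docking (of 26 listed), 0 were called and the median was 0.08. The list also held dynein chains, among them Dnaic1, Dnali1 and Dynlrb2, and Odf2, named for outer dense fibres. Between Cd-treated replicates 1 and 3, 4 of the 18 differed by 1 or more, with both ends of the order in 7. Of the 4 lung-expressed genes of this list, 2 differed by 1 or more and 2 had both ends. Ccdc114, of the docking complex of the outer arm, had the smallest unadjusted p of this list, 0.211, with a log2 difference of 0.37. Of 30 intraflagellar transport genes, which carry cargo in all cilia, 0 were called, the median was -0.10, and 7 differed by 1 or more. Both ends of the order were seen in 10 of the 30. Of 16 measured genes of the multiciliation programme (of 17 listed), 0 were called, the median was -0.01, and 3 differed by 1 or more. Both ends were seen in 3 of these 16 genes, whose median difference between Cd-treated replicates 1 and 3 was 0.15. All 3 were among the 5 lung-expressed genes of this list, whose median difference was 1.03.

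**Figure D4:**
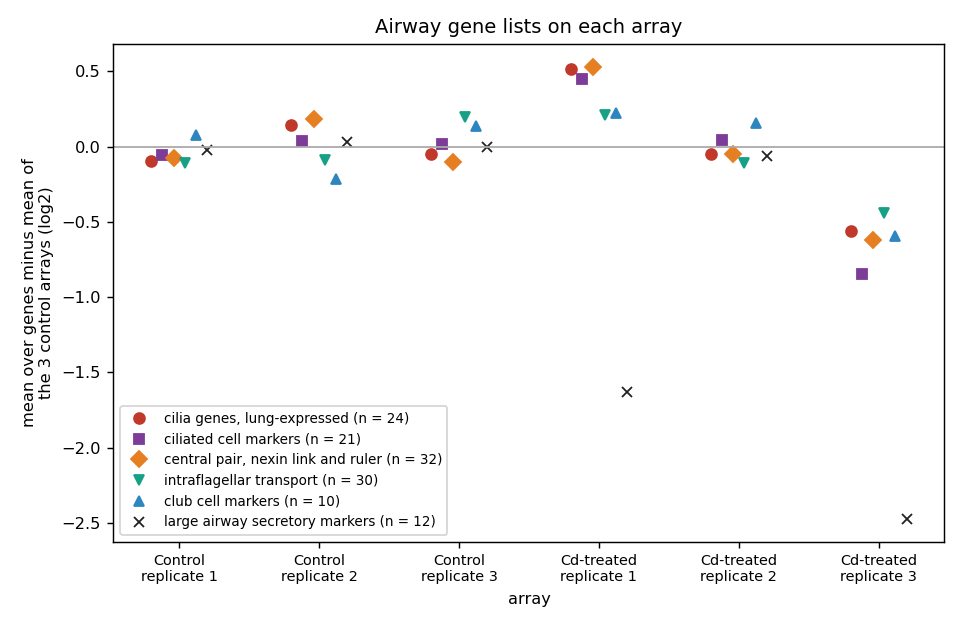
Mean log2 level (vertical axis) of 6 airway gene sets on each array, minus the mean of the 3 controls for that set, with 1 symbol per set. Cd-treated replicates 1, 2 and 3 stand at 0.52, -0.05 and -0.56 for the lung-expressed cilia genes and at 0.45, 0.04 and -0.85 for the ciliated cell markers, but at -1.63, -0.06 and -2.48 for the large airway secretory markers.

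Markers of ciliated cells moved with the axoneme genes. Of 21 measured markers (of 23 listed), 0 were called, and the median log2 difference was -0.11. All 21 were higher in Cd-treated replicate 1 than in replicate 3, as were 4428 of 5533 lung-expressed genes. A difference of 1 or more was seen in 15 of the 21, against 9.63% of lung-expressed genes. Sntn, a protein of the ciliary tip, was at 7.71, 7.62 and 7.91 in controls and 8.51, 8.24 and 6.40 in Cd-treated lungs. Tmem212 was at 9.23, 8.97 and 9.26 in controls and 10.06, 9.22 and 7.68 in Cd-treated lungs. Sntn and Tmem212 were named after their values were seen. Both ends of the order were found in 15 of the 21, but not in the 3 markers of smallest p. Kcnrg had the smallest unadjusted p of the list, 0.0786 from limma, with a log2 difference of -0.47. It was at 5.75, 5.52 and 5.89 in controls and 5.42, 5.44 and 4.88 in Cd-treated lungs. Spa17 was at 7.45, 7.75 and 7.41 in controls and 7.47, 7.28 and 6.45 in Cd-treated lungs. Ccdc78 was at 6.41, 6.41 and 6.25 in controls and 6.73, 6.42 and 6.63 in Cd-treated lungs. The mean over the list was 7.15, 7.25 and 7.23 in controls and 7.66, 7.25 and 6.36 in Cd-treated lungs, so that it had the order of the members. Its part in the members' spread was not tested.

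Markers of other cells of the lung were compared in the same way. The mean over 10 club cell markers was 9.97, 9.68 and 10.03 in controls and 10.12, 10.05 and 9.30 in Cd-treated lungs. It was highest in Cd-treated replicate 1 and lowest in replicate 3. Of the 10 markers, 9 were higher in replicate 1 than in replicate 3, as were 4428 of 5533 lung-expressed genes. Cd-treated replicate 1 was the highest array in 3 of the 10 and replicate 2 in 4, and both ends of the members' order were seen in 2. The mean over 12 large airway secretory markers was 7.82, 7.87 and 7.84 in controls and 6.21, 7.78 and 5.37 in Cd-treated lungs, low in both replicates 1 and 3. The median log2 difference of the list was -1.14, and 5 of the 12 were lower at an unadjusted p under 0.05 from limma. All 5 were among its 10 lung-expressed genes. At that p, 75 of 5533 lung-expressed genes and 0.622% of all genes were lower. Scgb3a1, a secretoglobin of the larger airways, lay at 11.13, 11.10 and 10.98 in controls and 8.38, 11.11 and 6.62 in Cd-treated lungs. Cd-treated replicate 1, with the highest cilia values, thus had low large airway secretory values. The mean over 8 alveolar type 2 markers was 9.22, 8.67 and 9.75 in controls and 9.10, 9.13 and 8.77 in Cd-treated lungs. The mean over 14 measured spermatid and sperm markers, cells that share the axoneme, was 5.38, 5.55 and 4.99 in controls and 5.20, 5.52 and 5.32 in Cd-treated lungs, and did not have the order of the members. The part of these other markers in the members' values was not tested.

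Among all genes, control replicate 3 stood apart from the other arrays, with skeletal muscle markers at a mean of 7.92 against 4.82 to 5.10 elsewhere. It was the highest array in 9 of these 10 markers. The mean of squamous epithelium markers was 5.95 there, against 4.98 to 5.15, but that list did not shift as a whole. Control replicate 3 was the highest array in 4 of its 9 genes and the lowest in 2. Array medians lay between 4.86 and 5.12. Without this array, the median log2 difference of the lung-expressed members was -0.04. It was -0.32 without Cd-treated replicate 1 and 0.27 without Cd-treated replicate 3. The direction of the median thus turned with the Cd-treated array that was left out. An exact permutation test of 3 against 3 arrays cannot give a p below 0.1.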

How the data were processed

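The authors deposited log2 values from RMA in oligo, an R package, in which scans are background-corrected, quantile-normalized and summarized per probe set. The submitters' processing notes list RMA and limma, no version given, and the version of oligo and the genome build are not given in the sources used here. Of 41345 probe sets, the annotation paired 23521 with 1 symbol, 1820 with several and 16004 with none. The members had 62 probe sets, with several for 3 genes, and 3 further probe sets shared with other symbols were left out. By gene number, 59 members were matched to RefSeq and 0 symbols differed.

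From these values, limma 3.58.1 in R 4.3.3 compared the groups over all probe sets, with group as the term and Benjamini-Hochberg adjustment across the whole table (3.06 prior degrees of freedom). The steps were tested on simulated data. Replicate numbers come from the labels. No depth exists for arrays, so the number of arrays limits the precision. Alternatives were array weights, cyclic loess, quantile normalization, centring, a trended and robust prior, filters, the replicate block, the methods' t-test and leaving out each array.

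Named were the 4 regulators, the 3 members of highest mean in each family, the 12 lung-expressed members of smallest unadjusted p, dim members at an unadjusted p under 0.05 (there were 0), the members next to a mean of 6, and up to 3 genes of a pathway list by smallest p. The members and lists were chosen with earlier results of these data known. Other named genes, the comparison of Cd-treated replicates 1 and 3 and the printed promoters were chosen after values were seen.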

Additional observations from a re-analysis of the deposited data

How the results depend on the processing

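With array weights, which limma set at 5.93, 0.60 and 0.23 for controls and 0.42, 6.41 and 0.46 for Cd-treated lungs, 24.5% of probe sets, 1 lung-expressed member (Cfap161, log2 difference 0.29, unadjusted p = 0.0322) and 8 dim members had an unadjusted p under 0.05. The weights rest on Control replicate 1 and Cd-treated replicate 2, and 1 dim member (Cfap97d1) had an adjusted p of 0.0458. The methods' t-test gave 1 dim member (Rsph14, p = 0.0453), an approximation at this size that the exact permutation test, with 0.1 as its smallest p, does not reach. With the replicate block, 1.09% of probe sets and 0 members passed. Deviations of same-numbered arrays correlated at -0.49, 0.07 and -0.51, and those of other pairs from -0.36 to 0.56. Deviations within a group of 3 are tied to each other, so these values cannot show whether same-numbered arrays share more than a number. Leaving out each array, the median log2 difference ran from -0.32 to 0.27 for lung-expressed and from -0.14 to 0.26 for dim members, 0 lung-expressed and 0 to 1 dim members passed, and 1.47% to 3.99% of probe sets did, with 3.34% when Cd-treated replicate 1 was left out and the highest share when control replicate 2 was. The single dim members were Cfap61 without Cd-treated replicate 1 (-0.52, unadjusted p = 0.0483) and Cfap97d1 without control replicate 3 (-0.52, unadjusted p = 0.0349). After cyclic loess, 10 of 24 members had Cd-treated replicate 1 above and replicate 3 below every control, against 17 as deposited. Without control replicate 3 it was 19, but the share in genes of like brightness rose from 12.1% to 38.2%. The median difference between these replicates was 1.03 after cyclic loess, 1.32 after quantile normalization and 1.42 after centring. Over 23 named members and 343 alternative fits, the sign changed in 52 fits of 21 members, and 2 fits (array weights, Cfap161 and Mcidas) reached an unadjusted p under 0.05. The cause of these changes was not tested. Background signal was not used here, so a low value is not separated from no expression.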

Other observations

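Of the 3 probe sets shared by several symbols, 1 paired with Dnah7a, Dnah7b and Dnah7c was at 5.63, 5.63 and 4.62 in controls and 6.07, 5.67 and 4.61 in Cd-treated lungs. Its lowest value lay in Cd-treated replicate 3, level with control replicate 3. A probe set shared by Cfap54, of the central pair, and Gm872 was at 6.08, 6.58 and 6.13 in controls and 6.89, 6.15 and 5.24 in Cd-treated lungs, in the order of the lung-expressed members. Signal of these probe sets cannot be divided between their symbols.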
